A study of Homo sapiens with 11 samples.

Results

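The genes described here are 10 genes tied to transforming growth factor beta (TGF-beta) signalling and to the co-activator YAP: TGFB1, TGFB2, LTBP2, THBS1, TGFBI, SMAD7, CCN1, CCN2, ANKRD1 and AMOTL2. They were chosen by symbol, all 10 were found among the 40460 genes of the deposited expression table, and all 10 were among the 17945 genes tested. RNA was sequenced from hTert-HME1, an immortalized line of normal human mammary epithelial cells, at passage 6 in mammary epithelial growth medium. Every library came from cells transfected with a small interfering RNA (siRNA), so no group was untransfected, and each target had a single siRNA sequence. The 4 groups were control siRNA with EGF (epidermal growth factor; 3 libraries, replicates A, B and C), BRCA2 siRNA with EGF (3 libraries, A, B and C), control siRNA without EGF (2 libraries, A and C) and BRCA2 siRNA without EGF (3 libraries, A, B and C). BRCA2 is a tumour suppressor that acts in DNA repair by homologous recombination. The letters are biological replicates per the labels, of 1 cell line, and how long EGF was withdrawn is not given in the sources used here.

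TGF-beta ligands are secreted in a latent form, held in the matrix by latent TGF-beta binding proteins, and are released by integrins or thrombospondin. The active ligand binds a receptor kinase pair, which phosphorylates SMAD2 and SMAD3; these enter the nucleus with SMAD4, and SMAD7, itself a target, shuts the receptor down. YAP and its paralogue TAZ are held in the cytoplasm by the Hippo kinases and angiomotins, and in the nucleus bind DNA through TEAD factors. CCN1, CCN2, ANKRD1 and AMOTL2 are standard YAP targets, and several of them also respond to TGF-beta. In mammary epithelial cells, EGF drives proliferation, whereas TGF-beta halts growth and induces matrix genes.

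Promoters were examined for the short words that TEAD and SMAD factors bind, because the genes were grouped by these factors. RefSeq (GRCh38.p14) had 250-base windows before the annotated start for 9 of the 10 genes, in 12 entries, with 3 starts for SMAD7 and 2 for AMOTL2. The motifs searched on both strands were the TEAD word GGAATG, the SMAD CAGA box CAGACA, the SMAD palindrome GTCTAGAC, the AP-1 site TGANTCA and the TATA box TATAAA. No match overlapped a match of another motif. Of 35116 promoter windows of the same length, 11.9% held the TEAD word, 13.6% the CAGA box, 0.182% the palindrome, 6.57% the AP-1 site and 10.7% the TATA box. The TEAD word was found for 5 genes: CCN2, ANKRD1, THBS1, TGFB2 and AMOTL2, the last at its second start only. The windows of the first 4 are shown 5′ to 3′ on the strand of the gene, in lower case with matches to the TEAD, CAGA and AP-1 words in capitals. CCN2 lies at chr6:131951373-131951622 (minus strand), ANKRD1 at chr10:90921088-90921337 (minus strand), THBS1 at chr15:39580829-39581078 (plus strand) and TGFB2 at chr1:218345086-218345335 (plus strand).
CCN2: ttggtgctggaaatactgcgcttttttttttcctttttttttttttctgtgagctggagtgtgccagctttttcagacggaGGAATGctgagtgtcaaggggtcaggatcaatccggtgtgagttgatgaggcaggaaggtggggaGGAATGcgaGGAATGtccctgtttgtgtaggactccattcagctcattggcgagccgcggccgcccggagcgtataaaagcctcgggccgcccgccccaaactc
ANKRD1: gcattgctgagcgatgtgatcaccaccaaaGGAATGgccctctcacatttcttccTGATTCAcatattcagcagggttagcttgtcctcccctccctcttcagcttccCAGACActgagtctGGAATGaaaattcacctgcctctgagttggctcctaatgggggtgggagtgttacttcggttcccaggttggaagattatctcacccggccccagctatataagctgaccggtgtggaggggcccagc
THBS1: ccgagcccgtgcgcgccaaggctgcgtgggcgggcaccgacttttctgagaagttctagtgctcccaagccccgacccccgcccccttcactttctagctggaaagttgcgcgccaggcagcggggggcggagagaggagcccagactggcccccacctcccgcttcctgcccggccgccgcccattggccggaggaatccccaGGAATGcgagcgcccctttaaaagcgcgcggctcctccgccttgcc
TGFB2: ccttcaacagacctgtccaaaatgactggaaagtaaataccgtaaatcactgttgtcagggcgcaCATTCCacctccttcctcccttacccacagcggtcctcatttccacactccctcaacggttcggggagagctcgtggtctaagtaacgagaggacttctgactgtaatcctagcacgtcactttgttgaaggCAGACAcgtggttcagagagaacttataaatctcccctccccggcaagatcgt
The CCN2 window held 3 TEAD words, at 169 to 164, 104 to 99 and 95 to 90 bases before the start. The ANKRD1 window held TEAD words at 220 to 215 and 128 to 123, a CAGA box at 142 to 137 and an AP-1 site at 195 to 189. THBS1 held 1 TEAD word at 46 to 41. TGFB2 held a TEAD word on the reverse strand at 185 to 180 and a CAGA box at 53 to 48. A match describes the letters only, and the expression files hold no measurement of binding.

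**Figure D1:**
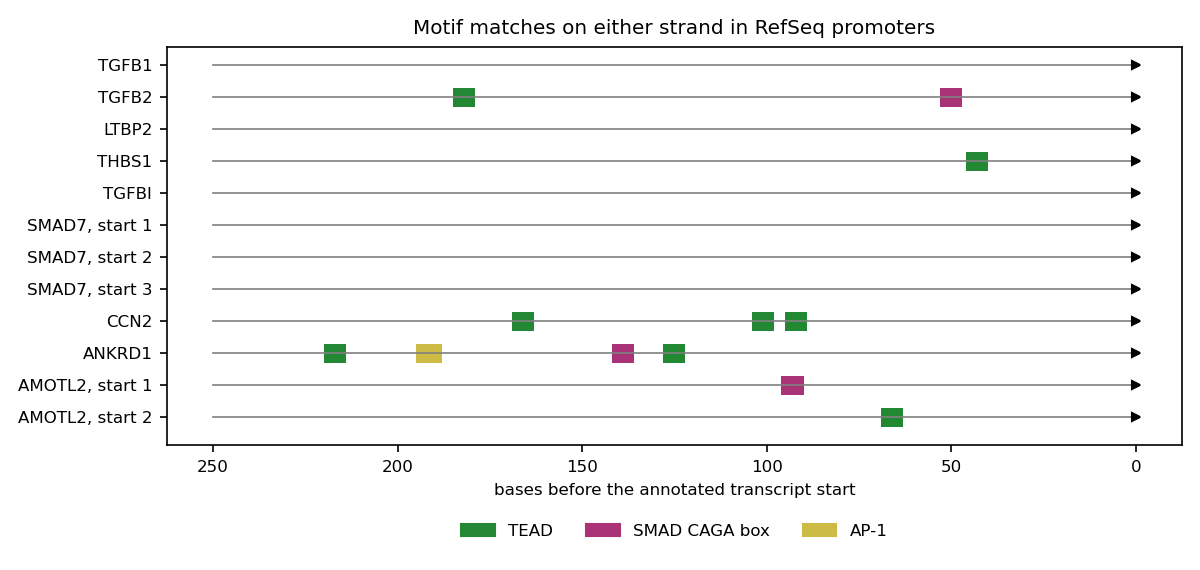
Positions of TEAD, SMAD CAGA box and AP-1 words in the 12 RefSeq promoter windows of 9 genes, in bases before the annotated start (arrowheads). CCN2 carries 3 TEAD words and ANKRD1 carries 2; the windows of TGFB1, LTBP2, TGFBI and SMAD7 hold none of the plotted words.

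The values were the authors' log2 values, and whether they were scaled for gene length is not given in the sources used here. Levels were therefore compared between libraries and not between genes, and the depth of the libraries is unknown. BRCA2, the targeted gene, read 12.37 to 12.43 in BRCA2 siRNA libraries grown with EGF and 12.13 to 12.48 in control libraries grown with it (difference 0.05 ± 0.12, SE, adjusted p = 0.999 in limma). Without EGF it read 12.11 to 12.48 in the libraries labelled BRCA2 siRNA and 11.44 and 11.65 in the control libraries, a difference of 0.74 ± 0.13 (SE) with adjusted p = 0.00397 in limma. The siRNA labels were thus not matched by a lower BRCA2 mRNA, and “BRCA2 siRNA” below means the libraries labelled so. Basal epithelial markers, 8 of 8 tested, summed to 18.53 to 18.77 (log2 of the summed values) in the libraries with EGF, 19.56 and 19.73 in the control libraries without it and 19.19 to 19.39 in the BRCA2 siRNA libraries without it. The sum adds linear values, so the highest markers, KRT5 (17.21 to 18.78) and KRT14 (16.30 to 17.85), set most of it. After withdrawal in control cells 4 of the 8 were called higher, beside 24.7% of all genes, and 4 were not called. Those not called included EGFR at 0.06, ITGB4 at 0.11 and LAMB3 at −0.92. Fibroblast markers (7 of 8 tested, with COL1A2 at 1.31 to 1.84, under the filter) summed to 10.73 to 11.10 with EGF, 13.05 and 13.17 in controls without EGF and 11.85 to 12.57 in BRCA2 siRNA libraries without EGF. After withdrawal in control cells 6 of the 7 were called higher, beside 24.7% of all genes. THY1 read 5.65 to 5.95 in controls with EGF and 5.53 and 5.86 in controls without. Between the siRNAs without EGF 4 of the 7 were called lower, beside 9.36% of all genes, while LUM differed by 0.43 and was not called. Leukocyte and endothelial markers (2 of 8 tested, KDR and CD14; the endothelial cadherin CDH5 at −0.30 to −0.01 and the leukocyte marker PTPRC at 2.33 to 3.10, both under the filter) summed to 7.53 to 8.64 with EGF, 10.23 and 10.45 in controls without EGF and 8.20 to 8.79 in BRCA2 siRNA libraries without EGF. KDR, a VEGF receptor, differed by 2.51 and CD14, a monocyte receptor, by 2.00 after withdrawal in control cells, by 0.43 and 0.82 after withdrawal in BRCA2 siRNA cells, and by −1.89 and −1.04 between the siRNAs without EGF. These marker sums, each set mainly by its highest genes, moved with EGF, and their part in the results was not tested. In such bulk libraries, fewer cells of a type and less RNA per cell cannot be told apart.

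EGF withdrawal in control siRNA cells raised TGFBI and SMAD7 and lowered THBS1 and TGFB1. Withdrawal in BRCA2 siRNA cells raised TGFBI, TGFB2 and SMAD7, and lowered no member beyond the test. Without EGF, THBS1 and TGFB1 were higher in the BRCA2 siRNA libraries than in the controls. The 4 YAP targets CCN1, CCN2, ANKRD1 and AMOTL2 passed the test in no comparison. With EGF present, no member differed between the siRNAs beyond the test.

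A gene counted as changed at an adjusted p (Benjamini-Hochberg over all tested genes, limma, two-sided) under 0.05, and the share of all tested genes that did so is given with the counts. After withdrawal in control cells, 4 of the 10 genes changed, 2 higher and 2 lower, where 50.8% of all genes changed, 24.7% higher and 26.1% lower. After withdrawal in BRCA2 siRNA cells, 3 of 10 changed, all higher, beside 27.1% of all genes, 13.4% higher and 13.8% lower. Between the siRNAs without EGF, 2 of 10 were higher and 0 lower, beside 20.5% of all genes, 11.2% higher and 9.36% lower. Between the siRNAs with EGF, 0 of 10 changed, and 0 reached an unadjusted p under 0.05; limma called 1 of all genes (0.00557%), with 508 at an unadjusted p under 0.05. The effect of withdrawal differed between the siRNAs (interaction) for 1 of 10, beside 3.32% of all genes. Counted in either direction, the members' shares were near or under those of all genes in withdrawal and in the siRNA comparison without EGF. The members' median log2 difference was −0.07 for withdrawal in control cells, 0.12 for withdrawal in BRCA2 siRNA cells and 0.09 between the siRNAs without EGF, beside 0.00, 0.00 and 0.01 over all genes. The groups did not overlap for 6 of 10 members after withdrawal in control cells and 5 of 10 in BRCA2 siRNA cells. The shares over all genes were 66.5% and 46.6%. Between the siRNAs, groups did not overlap for 4 of 10 without EGF and 1 of 10 with it, beside 62.3% and 5.88%. Separation of groups, given below for single genes, was thus common over all genes except between the siRNAs with EGF. The withdrawal comparison in control cells and the siRNA comparison without EGF share the 2 control libraries without EGF. Without either one of those 2 libraries, 2 genes changed after withdrawal in control cells and 0 between the siRNAs without EGF. With only replicates B and C, 1 gene each changed in the control and BRCA2 siRNA withdrawal comparisons and 0 between the siRNAs without EGF, with 1 control library left without EGF and its spread taken from the other groups.

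**Figure D2:**
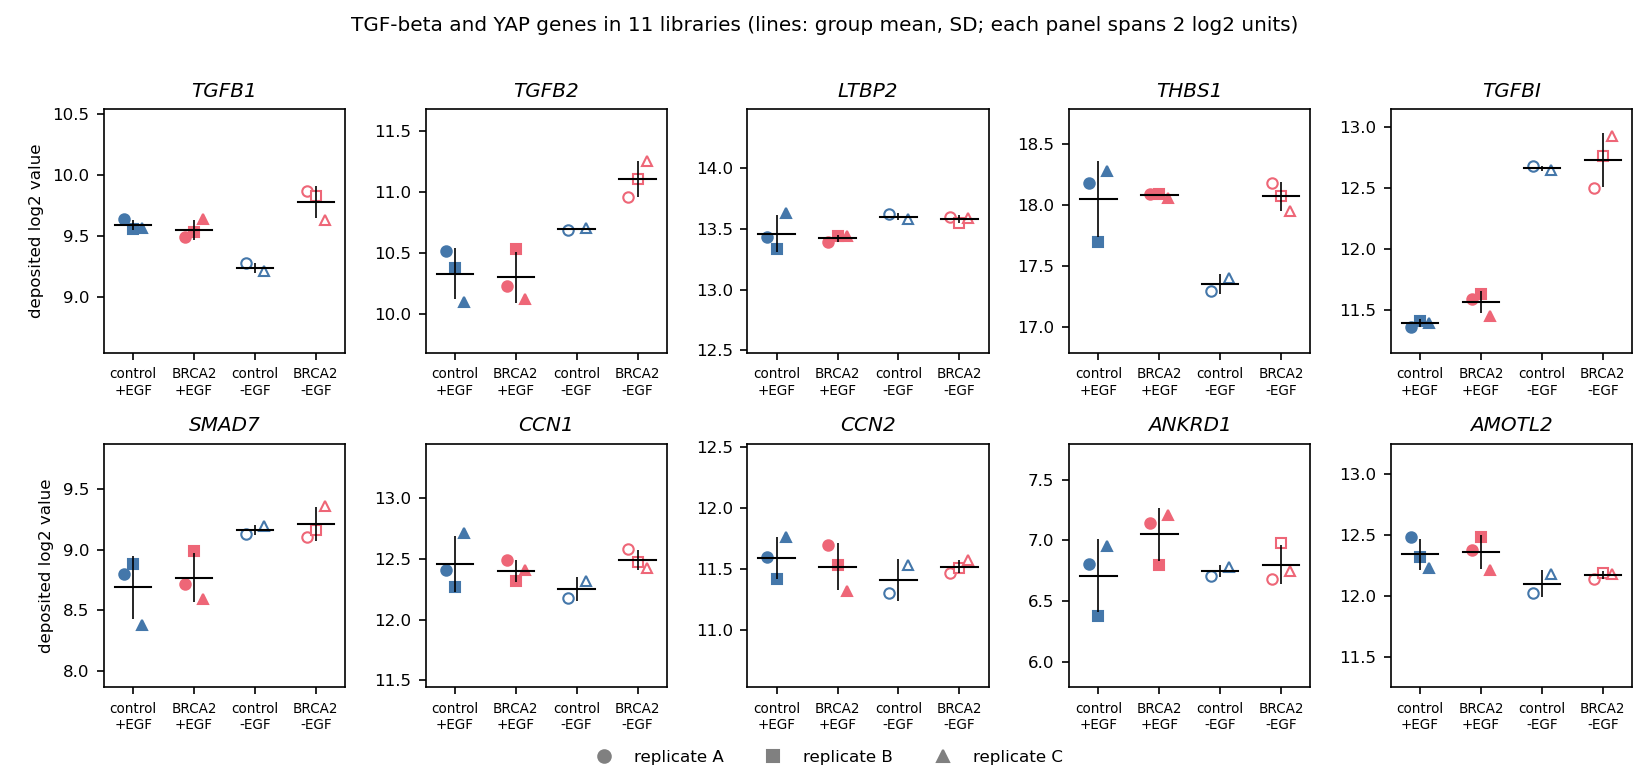
Deposited log2 value of each gene in each of the 11 libraries, by group (x axis), with the group mean (horizontal line) and SD (vertical line); marker shapes give the replicate letter. TGFBI sits at 11.36 to 11.63 with EGF and 12.50 to 12.93 without; TGFB1 and THBS1 are lowest in the 2 control libraries without EGF.

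The ligands come first. TGFB1 (ENSG00000105329), the main TGF-beta isoform, read 9.64, 9.56 and 9.57 in control libraries with EGF (replicates A, B and C; 9.59 ± 0.04, SD, n = 3). In BRCA2 siRNA libraries with EGF it read 9.49, 9.53 and 9.64 (9.55 ± 0.08, SD, n = 3), in controls without EGF 9.28 and 9.21 (A and C; 9.24 ± 0.04, SD, n = 2) and in BRCA2 siRNA libraries without EGF 9.87, 9.83 and 9.63 (9.78 ± 0.13, SD, n = 3). The 2 control libraries without EGF lay below the other 9, and those 9 overlapped across their groups. Withdrawal lowered TGFB1 1.27-fold in control cells (log2 difference −0.34 ± 0.10, SE, 95% confidence interval −0.56 to −0.12, adjusted p = 0.0142), by −0.36 within replicate A and −0.35 within C. In BRCA2 siRNA cells the difference was 0.23 ± 0.09 (SE, 0.03 to 0.42, adjusted p = 0.0805), with 0.38, 0.30 and −0.01 within A, B and C. Without EGF, TGFB1 was 1.45-fold higher in BRCA2 siRNA cells (0.53 ± 0.10, SE, adjusted p = 0.00549; 0.60 within A and 0.41 within C). The withdrawal effects differed by 0.57 ± 0.13 (SE, 0.27 to 0.86, adjusted p = 0.0464), and this interaction lost the call under 14 of 17 alternatives (adjusted p up to 0.899); of the 11 libraries, leaving out replicate C of BRCA2 siRNA without EGF or of control with EGF alone kept it. Without replicate A of the control libraries without EGF, the adjusted p was 0.055 for withdrawal in control cells and 0.0506 between the siRNAs; without replicate C it was 0.0937 and 0.0531. After quantile normalization, withdrawal in control cells gave −0.26 (adjusted p = 0.052).

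The TGFB1 reading has a limit of counting. TGFB1 exons overlap those of HNRNPUL1, an RNA-binding protein gene on the opposite strand, in GENCODE 29. HNRNPUL1 fell by 0.37 on the log2 scale after withdrawal in control cells (SE 0.09, adjusted p = 0.00448) and was 0.33 ± 0.09 (SE, adjusted p = 0.0214) higher in BRCA2 siRNA cells without EGF. Whether the authors' counting used strand is not given in the sources used here, so reads of the overlap cannot be told apart. The limit is not particular to TGFB1. On the opposite strand, an antisense gene overlapped exons of CCN2 and a long non-coding RNA overlapped those of LTBP2. On the same strand, TGFB2-OT1 overlapped TGFB2 and the pseudogene RPL39P5 overlapped AMOTL2. Overlaps of THBS1 are given below. The part of these overlaps in the readings was not tested.

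TGFB2 (ENSG00000092969), the isoform that lacks the integrin-binding motif of TGFB1, read 10.52, 10.38 and 10.10 in controls with EGF (10.33 ± 0.21, SD, n = 3) and 10.23, 10.53 and 10.12 in BRCA2 siRNA libraries with EGF (10.30 ± 0.21, SD, n = 3). Without EGF it read 10.69 and 10.71 in controls (10.70 ± 0.01, SD, n = 2) and 10.96, 11.11 and 11.26 in BRCA2 siRNA libraries (11.11 ± 0.15, SD, n = 3). All 5 libraries without EGF lay above all 6 with it, and the 3 BRCA2 siRNA libraries without EGF lay above every other library. Withdrawal raised TGFB2 1.76-fold in BRCA2 siRNA cells (log2 difference 0.81 ± 0.13, SE, 0.53 to 1.10, adjusted p = 0.00214; 0.73, 0.58 and 1.14 within A, B and C). In control cells the difference was 0.37 ± 0.15 (SE, 0.05 to 0.69, adjusted p = 0.0552; 0.17 within A and 0.61 within C). The test of the difference between these effects gave 0.45 ± 0.20 (SE, 0.02 to 0.88, adjusted p = 0.211), so the rise was not shown to be larger in BRCA2 siRNA cells. With only replicates B and C, withdrawal in BRCA2 siRNA cells gave 0.86 (adjusted p = 0.098). The siRNA difference without EGF was 0.41 ± 0.15 (SE, 0.09 to 0.73, adjusted p = 0.0698). It passed with the groups compared alone (adjusted p = 0.00432), without replicate B of BRCA2 siRNA with EGF (adjusted p = 0.0389) and without replicate C of control with EGF (adjusted p = 0.0339). Withdrawal in control cells passed after quantile normalization (0.56, adjusted p = 0.00702) and with a replicate block (0.41, adjusted p = 0.034). It also passed without replicate A of control with EGF (0.46, adjusted p = 0.0364) or replicate B (0.37, adjusted p = 0.0297) or C (0.37, adjusted p = 0.0492) of BRCA2 siRNA with EGF.

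Matrix proteins come next. THBS1 (ENSG00000137801), thrombospondin 1, which can activate latent TGF-beta and is itself a target of TGF-beta and YAP, had the promoter with a TEAD word at 46 to 41 shown above. It read 18.18, 17.70 and 18.28 in controls with EGF (18.05 ± 0.31, SD, n = 3) and 18.09, 18.09 and 18.06 in BRCA2 siRNA libraries with EGF (18.08 ± 0.01, SD, n = 3). Without EGF it read 17.29 and 17.40 in controls (17.35 ± 0.08, SD, n = 2) and 18.18, 18.07 and 17.95 in BRCA2 siRNA libraries (18.07 ± 0.12, SD, n = 3). As for TGFB1, the 2 control libraries without EGF lay below the other 9, and the other 3 group means lay within the spread of their libraries. Withdrawal lowered THBS1 1.63-fold in control cells (log2 difference −0.71 ± 0.16, SE, −1.05 to −0.36, adjusted p = 0.0033; −0.89 within A and −0.87 within C). In BRCA2 siRNA cells the difference was −0.01 ± 0.14 (SE, −0.32 to 0.30, adjusted p = 0.955). Without EGF, THBS1 was 1.65-fold higher in BRCA2 siRNA cells (0.72 ± 0.16, SE, 0.38 to 1.06, adjusted p = 0.00993; 0.90 within A and 0.54 within C). The interaction was 0.69 ± 0.21 (SE, 0.23 to 1.16) with adjusted p = 0.0902, which missed the threshold. It passed after quantile normalization (0.73, adjusted p = 0.0431) and without replicate B of control with EGF (0.87, adjusted p = 0.0287). Without replicate A or C of the control libraries without EGF, the siRNA difference had adjusted p = 0.103 or 0.0556, and with only replicates B and C withdrawal in control cells gave −0.58 (adjusted p = 0.195). THBS1 exons overlap FSIP1 and THBS1-AS1 on the opposite strand; FSIP1 differed by −0.26 ± 0.28 (SE, adjusted p = 0.453) after withdrawal in control cells, and THBS1-AS1 was not analysed here.

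LTBP2 (ENSG00000119681), a matrix protein of the latent TGF-beta binding protein family that does not itself bind latent TGF-beta, varied little. It ranged from 13.33 to 13.63 over the 11 libraries, with 13.43, 13.33 and 13.63 in controls with EGF and 13.55 to 13.62 in the 5 libraries without EGF. The control groups with and without EGF overlapped. The BRCA2 siRNA libraries read 13.39, 13.44 and 13.44 with EGF and 13.60, 13.55 and 13.59 without, with no overlap, as for 46.6% of all genes. The withdrawal differences were 0.14 ± 0.09 (SE, −0.06 to 0.33, adjusted p = 0.227) in control cells and 0.15 ± 0.08 (SE, −0.02 to 0.33, adjusted p = 0.168) in BRCA2 siRNA cells. After quantile normalization both passed, at 0.43 (adjusted p = 0.00851) and 0.31 (adjusted p = 0.0474). The control difference also passed without replicate C of control with EGF (0.22, adjusted p = 0.0246).

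TGFBI (ENSG00000120708), a secreted adhesion protein named for its induction by TGF-beta, showed the largest differences of the 10 genes under EGF withdrawal. It read 11.36, 11.41 and 11.39 in controls with EGF (11.39 ± 0.03, SD, n = 3) and 11.59, 11.63 and 11.45 in BRCA2 siRNA libraries with EGF (11.56 ± 0.09, SD, n = 3). Without EGF it read 12.68 and 12.65 in controls (12.66 ± 0.02, SD, n = 2) and 12.50, 12.76 and 12.93 in BRCA2 siRNA libraries (12.73 ± 0.22, SD, n = 3). All 5 libraries without EGF lay above all 6 with it, and the siRNA groups without EGF overlapped. With EGF, the BRCA2 siRNA libraries all lay above the controls, a separation seen for 5.88% of all genes. That difference was 0.17 ± 0.10 (SE, −0.05 to 0.39, adjusted p = 0.999 in limma) and was not called. Withdrawal raised TGFBI 2.42-fold in control cells (log2 difference 1.27 ± 0.11, SE, 1.03 to 1.52, adjusted p = 1.68e-05) and 2.25-fold in BRCA2 siRNA cells (1.17 ± 0.10, SE, 0.95 to 1.39, adjusted p = 0.000158). The rise was 1.32 and 1.25 within replicates A and C of control cells and 0.91, 1.13 and 1.48 within A, B and C of BRCA2 siRNA cells. The difference between the effects was −0.10 ± 0.15 (SE, −0.43 to 0.23, adjusted p = 0.745), and that between the siRNAs without EGF was 0.07 ± 0.11 (SE, −0.18 to 0.32, adjusted p = 0.701). Both withdrawal calls were kept under all 18 alternatives.

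SMAD7 (ENSG00000101665), the inhibitory SMAD that marks receptors for degradation, read 8.80, 8.88 and 8.38 in controls with EGF (8.69 ± 0.26, SD, n = 3) and 8.72, 8.99 and 8.59 in BRCA2 siRNA libraries with EGF (8.77 ± 0.20, SD, n = 3). Without EGF it read 9.13 and 9.19 in controls (9.16 ± 0.04, SD, n = 2) and 9.10, 9.16 and 9.36 in BRCA2 siRNA libraries (9.21 ± 0.14, SD, n = 3). The 5 libraries without EGF all lay above the 6 with EGF, and the siRNA groups overlapped at each EGF state. Withdrawal raised SMAD7 1.39-fold in control cells (0.48 ± 0.16, SE, adjusted p = 0.0306) and 1.35-fold in BRCA2 siRNA cells (0.43 ± 0.15, SE, adjusted p = 0.0469). The first call was lost under 6 of 18 alternatives, among them leaving out control replicate A (0.50, adjusted p = 0.0995) or C (0.45, adjusted p = 0.133) without EGF or control replicate C with EGF (0.32, adjusted p = 0.0709). The second was lost under 11 of 18, among them leaving out any of the 3 BRCA2 siRNA libraries without EGF or replicate A or C with EGF (0.35 to 0.49, adjusted p = 0.0631 to 0.158). With EGF, replicate B read above C for this gene by 0.49 in control and 0.40 in BRCA2 siRNA libraries. The medians over all genes were 0.02 and 0.00, but they are of signed differences and do not give the usual size of a gap. Other members had gaps of similar size, among them ANKRD1 at −0.57 and −0.41, and THBS1 at −0.58 in control libraries but 0.02 in BRCA2 siRNA libraries.

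The YAP targets moved little. CCN1 (ENSG00000142871), a secreted integrin ligand also called CYR61, read 12.41, 12.27 and 12.71 in controls with EGF, 12.49, 12.32 and 12.41 in BRCA2 siRNA libraries with EGF, 12.18 and 12.32 in controls without EGF and 12.58, 12.47 and 12.42 in BRCA2 siRNA libraries without EGF. The groups overlapped except that both control libraries without EGF lay below the 3 BRCA2 siRNA libraries without it. That siRNA difference was 0.24 ± 0.12 (SE, −0.02 to 0.50, adjusted p = 0.18), and it passed with the groups compared alone (adjusted p = 0.0208). Withdrawal differences were −0.21 ± 0.12 (SE, −0.48 to 0.05, adjusted p = 0.162) in control and 0.09 ± 0.11 (SE, −0.15 to 0.32, adjusted p = 0.563) in BRCA2 siRNA cells. The control difference passed without replicate B of control with EGF (−0.31, adjusted p = 0.0462).

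CCN2 (ENSG00000118523), the matrix protein also called connective tissue growth factor, with 3 TEAD words in the window printed above, read 11.60, 11.42 and 11.76 in controls with EGF and 11.70, 11.53 and 11.32 in BRCA2 siRNA libraries with EGF. It read 11.30 and 11.53 in controls without EGF and 11.47, 11.51 and 11.57 in BRCA2 siRNA libraries without EGF. All 4 groups overlapped. The withdrawal differences were −0.18 ± 0.13 (SE, −0.46 to 0.10, adjusted p = 0.267) in control and 0.00 ± 0.11 (SE, −0.26 to 0.25, adjusted p = 0.986) in BRCA2 siRNA cells. CCN1 and CCN2 had the smallest root mean square difference of any pair of the 10 genes, 0.11 between their centred log2 profiles over 11 libraries. Their own spreads about their means were only 0.141 and 0.135. The measure is small for any pair of genes that vary little, so it does not show that the 2 genes moved together.

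ANKRD1 (ENSG00000148677), a nuclear and sarcomeric ankyrin repeat protein, with TEAD, CAGA and AP-1 words in its window, read 6.81, 6.38 and 6.95 in controls with EGF and 7.14, 6.80 and 7.21 in BRCA2 siRNA libraries with EGF. It read 6.71 and 6.78 in controls without EGF and 6.68, 6.98 and 6.75 in BRCA2 siRNA libraries without EGF. All groups overlapped except that both control libraries without EGF lay below the 3 BRCA2 siRNA libraries with EGF. The siRNA difference with EGF was 0.34 ± 0.17 (SE, −0.04 to 0.71, adjusted p = 0.999), with 0.33, 0.42 and 0.26 within replicates A, B and C. Replicate B read below C by 0.57 in control and 0.41 in BRCA2 siRNA libraries with EGF. Withdrawal differences were 0.03 ± 0.19 (SE, −0.39 to 0.45, adjusted p = 0.899) in control and −0.25 ± 0.17 (SE, −0.62 to 0.13, adjusted p = 0.297) in BRCA2 siRNA cells.

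AMOTL2 (ENSG00000114019), an angiomotin that binds and restrains YAP, read 12.48, 12.32 and 12.23 in controls with EGF, 12.38, 12.48 and 12.21 in BRCA2 siRNA libraries with EGF, 12.02 and 12.18 in controls without EGF and 12.14, 12.19 and 12.18 in BRCA2 siRNA libraries without EGF. All 5 libraries without EGF lay below the 6 with it, by a narrow margin. The differences were −0.24 ± 0.10 (SE, −0.46 to −0.02, adjusted p = 0.0702) in control and −0.19 ± 0.09 (SE, −0.39 to 0.01, adjusted p = 0.142) in BRCA2 siRNA cells. The control difference passed without replicate C of control with EGF (−0.30, adjusted p = 0.0295). After quantile normalization the control difference of AMOTL2 was −0.01, and those of CCN1, CCN2 and ANKRD1 took the opposite sign, at 0.02, 0.06 and −0.23, none of them called.

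**Figure D3:**
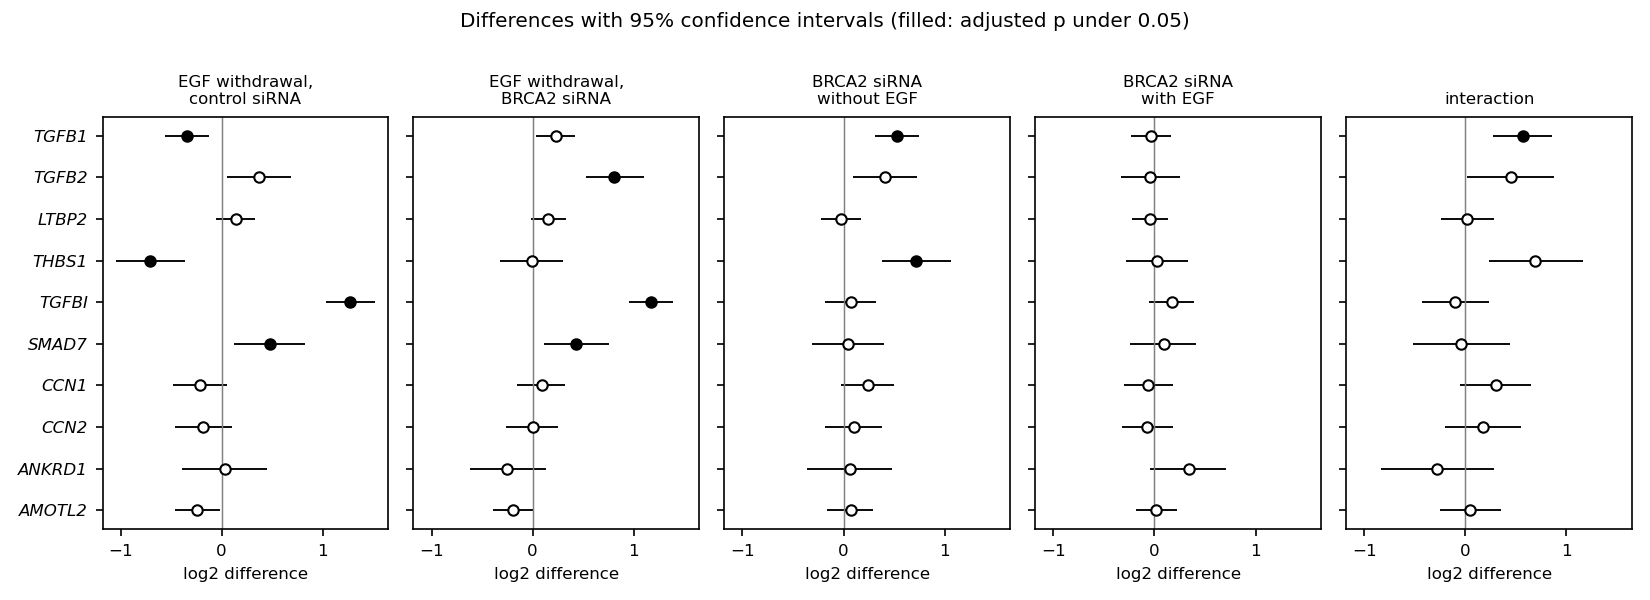
Log2 difference (x axis) of each of the 10 genes in the 4 comparisons and the interaction, with 95% confidence intervals from limma; filled points have adjusted p under 0.05. TGFBI is filled in both withdrawal panels (1.27 and 1.17), THBS1 in control withdrawal (−0.71) and between the siRNAs without EGF (0.72), and no point is filled with EGF present.

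The other genes of the pathway are described from lists chosen with earlier results of these data known, and the lists overlap each other and hold some of the 10 genes. Among ligands and latency genes (13 of 15 tested), withdrawal raised 5 and lowered 4 in control cells (median 0.29), and raised 4 and lowered 0 in BRCA2 siRNA cells (median 0.23). For these and the following lists, the shares over all genes were 24.7% higher and 26.1% lower in control cells, 13.4% and 13.8% in BRCA2 siRNA cells, and 11.2% and 9.36% between the siRNAs without EGF. ITGB6, the beta chain of the epithelial integrin that releases TGF-beta from latency, rose by 3.29 ± 0.30 (SE, log2, adjusted p = 1.96e-05) in control and 2.03 ± 0.27 (SE, adjusted p = 0.000962) in BRCA2 siRNA cells. ITGB8, the beta chain of another releasing integrin, rose by 2.04 and 1.00. In BRCA2 siRNA cells its groups overlapped, and the call (adjusted p = 0.0339) was lost under 5 of 18 alternatives. LTBP3, a binding protein needed for secretion of the latent ligand, rose by 1.55 and 0.61, the second call (adjusted p = 0.0351) lost under 7 of 18 alternatives. Between the siRNAs without EGF, 4 of the 13 were higher and 2 lower in BRCA2 siRNA cells, with LTBP1 at 0.74 ± 0.16 (SE, adjusted p = 0.0101) and ITGB8 and LTBP3 at −1.33 and −0.91.

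Among the receptors (11 of 12 tested), 7 rose and 2 fell after withdrawal in control cells (median 0.45), and 3 rose and 1 fell in BRCA2 siRNA cells (median 0.07), beside 50.8% and 27.1% of all genes called in either direction. TGFBR3, the co-receptor betaglycan that presents TGFB2, rose by 3.30 ± 0.38 (SE) in control and 1.20 in BRCA2 siRNA cells, the second a call lost under 5 of 18 alternatives. These effects differed by −2.10 ± 0.51 (SE, adjusted p = 0.0492), an interaction lost under 11 of 17 alternatives. TGFBR1, the signalling kinase, rose by 0.87 ± 0.12 (SE) and 0.48, and BMPR2 by 0.70 and 0.46. Between the siRNAs without EGF, 1 receptor was higher, ENG at 0.56, a call lost under 8 of 18 alternatives, and 2 were lower, among them TGFBR3 at −1.87. The SMADs and their regulators (16 of 17 tested) split into 4 higher and 5 lower in control cells and 2 and 2 in BRCA2 siRNA cells. SMURF2, a ubiquitin ligase that works with SMAD7, fell by 1.29 (SE 0.11) and by 0.60, and its interaction was 0.68 ± 0.14 (SE, adjusted p = 0.0333), lost under 8 of 17 alternatives. PMEPA1, a feedback inhibitor, fell by 0.56 in control cells, with −0.20 in BRCA2 siRNA cells.

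The TGF-beta response genes (20 of 20 tested) included genes that moved in opposite directions. After withdrawal, 6 rose and 8 fell in control cells (median −0.35), and 5 rose and 1 fell in BRCA2 siRNA cells (median 0.06), beside 24.7% higher and 26.1% lower, and 13.4% and 13.8%, of all genes. COL1A1, a fibrillar collagen chain also on the fibroblast list, rose by 3.05 ± 0.24 (SE) and 1.90, and TAGLN, an actin-binding protein, by 1.78 and 1.68. These were named by smallest p, and more genes of this list fell than rose in control cells. Among those that fell was COL4A1, another collagen chain, at −0.35 ± 0.08 (SE, adjusted p = 0.005), a call lost under 2 of 18 alternatives. In BRCA2 siRNA cells COL4A1 differed by −0.19 and was not called. In this list 5 genes were higher and 2 lower between the siRNAs without EGF. LTBP1, at 0.74, was among the higher and CDKN2B, a cell cycle inhibitor, at −1.11, among the lower.

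In the Hippo pathway and YAP cofactor list (23 of 23 tested), withdrawal raised 4 and lowered 6 in control cells (median −0.23) and raised 2 and lowered 1 in BRCA2 siRNA cells (median −0.08), called shares that lay under those of all genes, 50.8% and 27.1%. VGLL3, a TEAD cofactor, rose by 2.40 and 1.49, and AMOT, a relative of AMOTL2, rose by 1.66 in control cells, with 0.52 in BRCA2 siRNA cells. NF2, an upstream activator of the Hippo kinases, fell by 0.83 (SE 0.12) in control cells, with −0.17 in BRCA2 siRNA cells. YAP1 itself, named after its values were seen, differed by −0.22 ± 0.09 (SE, adjusted p = 0.0571) and −0.07, and WWTR1, which encodes TAZ, by −0.22 ± 0.16 (SE, adjusted p = 0.253) and −0.13. In the YAP and TAZ signature (22 of 22 tested), 5 rose and 5 fell in control cells and 4 rose and 2 fell in BRCA2 siRNA cells. After quantile normalization those rises became 9 and 8. NT5E, the CD73 ectoenzyme, fell by 1.38 (SE 0.11) and by 0.63, and AXL, a receptor kinase, fell by 1.28 and by 0.69. CCDC80, a matrix protein, rose by 1.11 and 0.41, the second a call lost under 6 of 18 alternatives. F3, tissue factor, fell by 0.79 in control cells, with 0.24 in BRCA2 siRNA cells, an interaction of 1.03 ± 0.21 (SE, adjusted p = 0.0324) that was lost under 8 of 17 alternatives.

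The last list held family relatives of the 10 genes (11 of 16 tested). Withdrawal raised 7 and lowered 0 in control cells (median 0.68) and raised 4 and lowered 0 in BRCA2 siRNA cells (median 0.44), beside 24.7% higher and 26.1% lower, and 13.4% and 13.8%, of all genes. POSTN, the relative of TGFBI, rose by 2.03 and 1.27. CCN3, of the family of CCN1 and CCN2, differed by 1.64 and 0.69 and is counted in the 7 and the 4. It read 2.64 to 3.30 in the libraries with EGF, all under the filter of 3.32. CCN3 was thus tested only because it was higher without EGF, so its rise is no independent result. THBS3, of the thrombospondin family, rose by 1.24 in control cells, and was lower in BRCA2 siRNA cells without EGF, at −0.98. Between the siRNAs without EGF, 1 relative was higher and 4 lower. With EGF present, no gene of any of these 7 lists passed the test between the siRNAs. Of the 112 calls on the named genes of these lists and of the marker lists, 40 were lost without replicate A and 37 without replicate C of the control libraries without EGF, and 88 with only replicates B and C. The control withdrawal calls of ITGB6, LTBP3, TGFBR3, TGFBR1, SMURF2, COL1A1, TAGLN, VGLL3, NF2, AMOT, NT5E, AXL, CCDC80, POSTN and THBS3 were kept under every alternative in which the gene was tested.

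**Figure D4:**
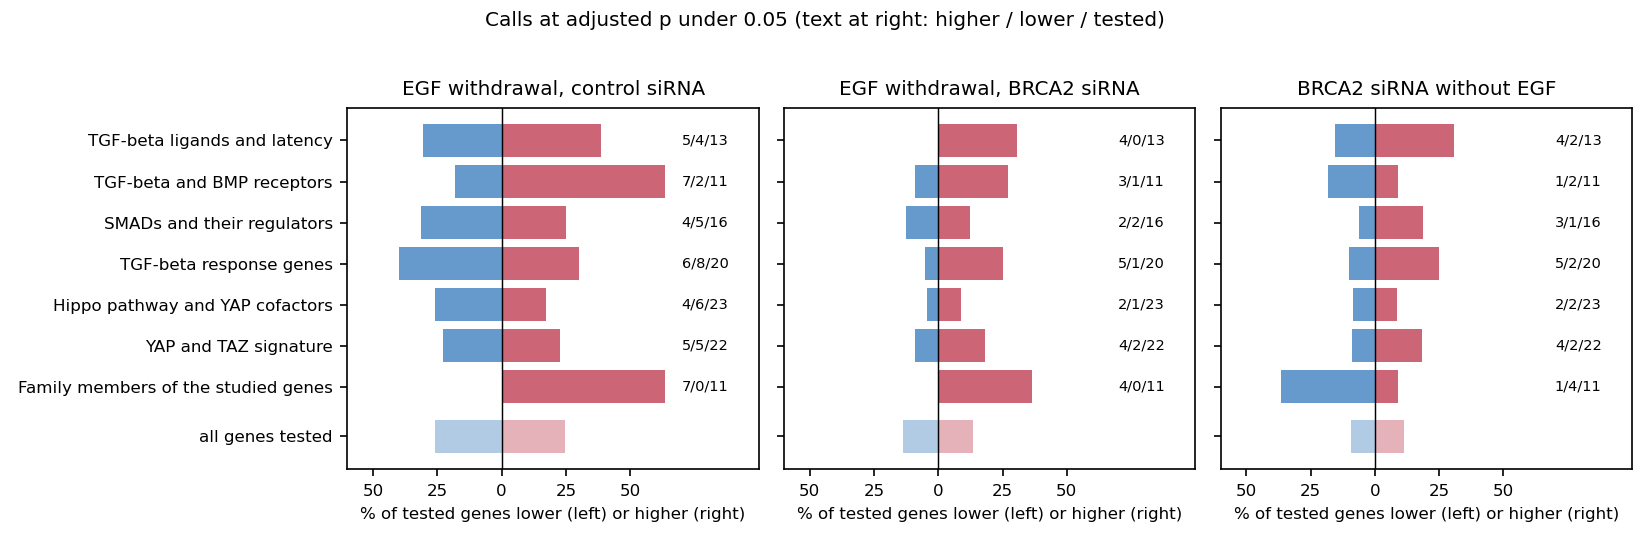
Percent of tested genes lower (left) or higher (right) at adjusted p under 0.05 in 3 comparisons, for 7 pathway lists and for all genes tested; the text in each panel gives higher, lower and tested. Family members of the studied genes show 7 higher and 0 lower of 11 after withdrawal in control cells, and TGF-beta response genes 6 higher and 8 lower of 20. The 7, and the 4 higher after withdrawal in BRCA2 siRNA cells, include CCN3, which passed the filter only through libraries without EGF.

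Profiles most like each gene were sought among 17177 tested genes with a symbol, by the root mean square difference of log2 values centred on each gene's mean over 11 libraries. TGFB1 lay nearest to EPB41L2 (0.0463) and SCAF1 (0.0628), against 0.19 for its own spread about its mean. THBS1 lay nearest to CKAP2L (0.075) and to BRCA2 (0.0819), against 0.312 for its own spread; BRCA2 was, like THBS1, lowest in the 2 control libraries without EGF. TGFB2 lay nearest to CEACAMP10 (0.116) and ALPK2 (0.122), TGFBI to MOB3B (0.154) and SULF1 (0.156), and SMAD7 to APP (0.0943) and SH3RF2 (0.0971). For the genes that varied little, the nearest profiles are close by the measure's construction: LTBP2 to COA1 (0.0393) and COG7 (0.046), CCN1 to HEATR1 (0.0399) and RAD21 (0.0518), CCN2 to FITM2 (0.0888) and MAGEF1 (0.0905), ANKRD1 to ZDHHC12 (0.0869) and SPR (0.0945), and AMOTL2 to KBTBD2 (0.0339) and ZBTB11 (0.0395). None of the nearest genes was among the 10.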

How the data were processed

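The 11 libraries were made from total RNA of hTert-HME1 cells after removal of ribosomal RNA. The deposited values are log2 values for 40460 genes. Per the submitters' processing notes, hg19, TopHat2 2.0.11, DESeq2 and limma were used, in roles not stated; for the counter, annotation, strand setting and transform, the tool or choice is not stated there. In the deposited log2 values every gene has the same mean over the 4 replicate A libraries as over the 7 replicate B and C libraries (largest gap 7.2e-09), so a difference between A and the others, on average, is not in them.

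Genes of at least 10 on the linear scale (3.32 log2) in at least 2 libraries were tested (17945) with limma 3.58.1 (R 4.3.3), a mean per group, a moderated variance with a trend, 7 residual degrees of freedom (11.2 moderated) and Benjamini-Hochberg adjustment over all tested genes; the code was tested on simulated data. IDs matched a symbol for 92.9% of genes. The text names the 10 genes, up to 3 further genes per list and comparison with the smallest p, and the 2 nearest profiles per gene; the members and lists were chosen with earlier results of these data known. YAP1 and WWTR1 were named outside this rule, as were overlapping genes and marker genes given as values. A gene that the rule names is not reported here. Alternatives were no filter, a filter at 100, groups compared alone, replicates B and C only, quantile normalization, a replicate block, a term for replicate A and leaving out each library. The p-values measure the spread between these cultures of 1 line, in values that no longer hold the mean difference between A and the others. Outside the alternative with a term for replicate A, the degrees of freedom were not lowered for this.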

Additional observations from a re-analysis of the deposited data

Results flagged for a closer look

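The effect of EGF withdrawal on TGFB1 differed between the siRNAs by a test of the difference itself: the BRCA2 siRNA minus control siRNA effect was 0.57 on the log2 scale (adjusted p = 0.0464, limma interaction). TGFB1 was lower after withdrawal in both control pairs (−0.36 and −0.35 within replicates A and C) and higher in 2 of 3 BRCA2 siRNA pairs (0.38, 0.30 and −0.01 within A, B and C). It rests on 2 control libraries without EGF and on a threshold missed under 14 of 17 alternatives.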

How the results depend on the processing

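The 10 calls on single genes among the 10 gave 179 repeats, of which 136 kept the call, 43 lost it and 0 reversed; 16 calls were gained. Using only replicates B and C, 1 gene passed for withdrawal in control cells, 1 for withdrawal in BRCA2 siRNA cells, 0 between the siRNAs without EGF and 0 for the interaction, and 2074, 47, 0 and 0 of all genes passed in place of 9121, 4871, 3687 and 595; that setting leaves 1 control library without EGF, whose spread is taken from the other groups. With the groups compared alone, 4 genes passed between the siRNAs without EGF, and 6776 of all genes. The interaction count was 0 without a filter and 0 with a term for replicate A. Leaving out each library gave 2 to 5 genes for withdrawal in control cells, 2 to 3 in BRCA2 siRNA cells, 0 to 3 between the siRNAs without EGF and 0 to 1 for the interaction. Between the siRNAs with EGF the count was 0 under every alternative. Whether the replicate letters pair the libraries was not settled: deviations from the group means correlated at 0.7 for B and 0.7 for C between the siRNAs with EGF (unlike letters −0.64 and −0.75) and at −0.13 to 0.04 in the other same-letter pairs of B and C, while the centring of the deposited values pushes those of A (−0.37 to −0.12) below 0 and makes them no check. With the letter as a replicate block, 5, 3, 2, 0 and 0 genes passed for withdrawal in control and in BRCA2 siRNA cells, between the siRNAs without and with EGF and for the interaction, with 930 of all genes for the interaction; TGFB2 passed for withdrawal in control cells (0.41, adjusted p = 0.034) and the TGFB1 interaction missed (0.57, adjusted p = 0.0513). Over all genes, leaving out each library gave 6164 to 10023, 2228 to 6202, 624 to 4767, 0 to 1 and 0 to 1606 calls in the same order. Of the 112 calls on list and marker genes, 0 reversed under any alternative run, and besides those given above 20 were lost without a filter, 18 after quantile normalization and 2 with the replicate block. The cause of these moves was not tested. Depth is unknown, so no counting error can be given, and the 2 control libraries without EGF limit 3 of the 5 comparisons.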
